A study of Rattus norvegicus with 12 samples.

Results

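The 6 tumors from mice given MNF, (R,R')-4-methoxy-1-naphthylfenoterol, were compared between the 2 cohorts of the study: tumors 1, 2 and 3 of cohort 1 against tumors 4, 5 and 6 of cohort 2. They are 6 of the 12 tumors profiled, the other 6 coming from mice given the vehicle alone (3 per cohort), and they were grouped by their labels. This comparison and the gene lists used below were chosen with earlier results of these data known, so the list counts are not blind to the data. All 12 were subcutaneous left-flank grafts of C6, an established rat glioma line, in athymic female nude mice (SWISS nu+/nu+). The age of the mice is not given in the sources used here. MNF was injected into the peritoneum at 2 mg/kg on 5 days a week for 19 days, starting 3 days after the cells were implanted, in saline with ascorbic acid, which alone was the vehicle. The study's text also gives a course shorter by 1 day and citrate in PBS as the vehicle, and which of them applied to which cohort is not stated. The second cohort was a repeat of the experiment in other animals, and the sources do not say how the 2 runs differed in date, chip or scan, so that any such difference and the cohort cannot be told apart. One array was hybridised per tumor, so a p-value here sets the cohort difference against the spread between tumors within the cohorts. Each cohort was run once, so it does not cover how much repeat runs vary.

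MNF is a derivative of fenoterol, a beta2-adrenergic agonist that raises cAMP through the stimulatory G protein, and it also acts on cells that carry the cannabinoid-related receptor GPR55. Growth factor, stress and cAMP signals induce the immediate early genes within minutes through serum response factor and CREB, low oxygen induces glycolytic and angiogenic genes through HIF-1, and a shortage of amino acids induces transporter and aminoacyl-tRNA synthetase genes through ATF4. A subcutaneous xenograft holds mouse vessels, fibroblasts, muscle and blood cells besides the rat glioma cells, and the rat probes of the array bind mouse RNA only as far as the sequences match. In bulk RNA, fewer cells of a type and less RNA per cell cannot be told apart.

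Levels are given as normalized log2 signal, in log2 units from the mean of all tested genes on the same array, and differences are cohort 2 minus cohort 1, so that a difference of 1 is a 2-fold change. Each difference is given with its SE from limma over 3 tumors per cohort. Mean raw signal per MNF array ran from 500.43 in tumor 1 to 858.24 in tumor 6, and 8733 to 9562 of the 22517 probes were detected per array. Probes detected on all 6 MNF arrays gave 7762 genes, of which 5602 carried a symbol. The glial line showed in every tumor: S100b, a calcium-binding protein of astrocytes and Schwann cells, was at 1.92, 2.06 and 2.47 in cohort 1 and 2.73, 2.62 and 2.42 in cohort 2. Of 18 glial progenitor genes on the array 14 were tested, among them Nes, Olig1, Pdgfra, Sox2 and Vim, while the astrocyte water channel Aqp4 was detected on none of the 6 arrays. Rat probes for the macrophage genes Aif1, Tyrobp and C1qa, the endothelial genes Cdh5 and Vwf, and the pan-leukocyte gene Ptprc were detected on none of the 6 arrays either, and no neutrophil, lymphocyte, adipocyte or keratinocyte marker passed the filter. Other macrophage and endothelial markers were detected on all 6 arrays. Of the 16 macrophage genes on the array 3 were tested. Cd68, a lysosomal glycoprotein, differed by -0.54 (SE 0.24, unadjusted p = 0.0487), Mrc1, the mannose receptor, by -0.26 (SE 0.19, unadjusted p = 0.192) and Cd14, a lipopolysaccharide co-receptor, by 0.08 (SE 0.16, unadjusted p = 0.632). Of the 14 endothelial genes 4 were tested. Ramp2, a subunit of the adrenomedullin receptor, differed by 0.76 (SE 0.29, unadjusted p = 0.0266). Cldn5, Esam and Plvap differed by -0.21, 0.11 and 0.03 (unadjusted p = 0.226, 0.572 and 0.886). The cohorts overlapped in all 7. The summed signal ran from 2742.5 to 3275.5 in cohort 1 and from 2681.5 to 3696.7 in cohort 2 for the macrophage probes. For the endothelial ones it ran from 2729.4 to 3631.1 and from 3287.9 to 7695.5. Skeletal muscle signal was higher in every tumor of cohort 2 than in any of cohort 1. The summed signal of the 23 muscle probes was 14616.3, 3801.1 and 8392.4 in tumors 1, 2 and 3 and 109941.3, 184570.3 and 60508.0 in tumors 4, 5 and 6. Among vehicle tumors the same sum was high in tumors 5 and 6 (70867.4 and 55262.5) and between 4060.6 and 8251.0 in the other 4, so it accompanied the cohort in every MNF tumor and in 2 of the 3 vehicle tumors of cohort 2. Its part in the differences given here was not tested.

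Across all 7762 genes the cohort took 34.1% of the variance among the 6 MNF tumors, against 20% where cohorts do not differ, and this was the largest share over the 20 arrangements into 3 and 3 (exact permutation p = 0.1, the smallest that 3 against 3 can give). Without tumor 4, 5 or 6 the cohort share was no longer the largest (exact permutation p = 0.2 for each). After Benjamini-Hochberg adjustment of limma's p-values, 0 genes (0%) passed 0.05. The smallest adjusted p was 0.0912, held by an unnamed probe, and 0.164 among genes with a symbol. At an unadjusted p under 0.05 there were 1132 genes, 590 higher in cohort 2 (7.6%) and 542 lower (6.98%), where the threshold alone gives 388.1. The 3 values of one cohort all lay above the 3 of the other for 825 genes higher in cohort 2 (10.6%) and 867 lower (11.2%). The median size of a difference was 0.164 and its median SE 0.148. Only 19 genes differed by over 1 upward and 19 downward. Leaving out tumor 2 raised the adjusted count from 0 to 49 and the unadjusted one to 1697, whereas the unadjusted count was 733, 707 and 723 without tumors 3, 4 and 6. Values below are therefore named by their unadjusted p and none passed the correction. Pairs of tumors differed by a root mean square of 0.311 to 0.498 within cohort 1, 0.238 to 0.303 within cohort 2 and 0.340 to 0.503 between cohorts.

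**Figure D1:**
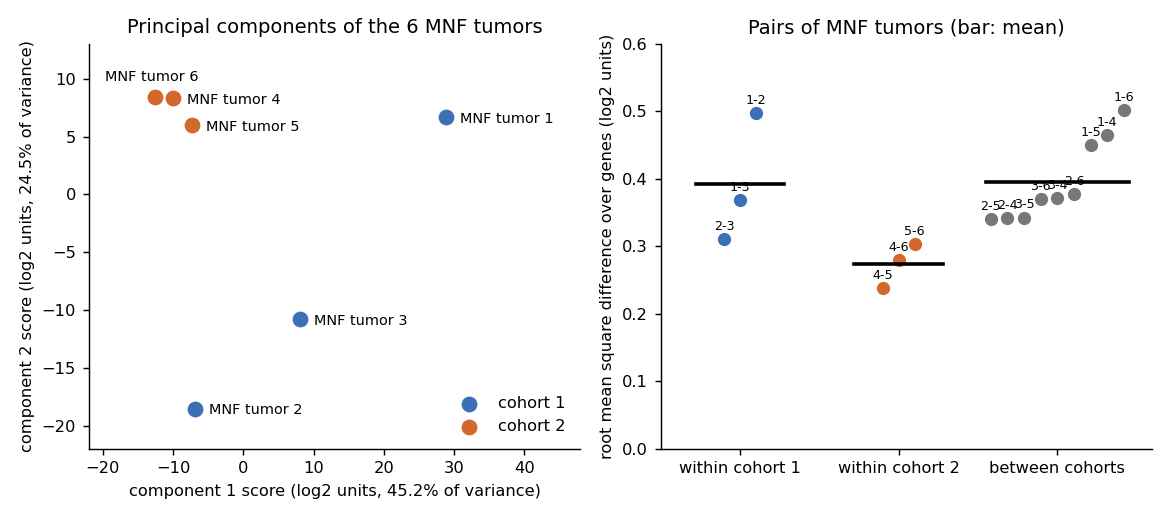
The left panel plots each MNF tumor by its scores on the first and second principal components of 7762 genes (log2 units, 45.2% and 24.5% of the variance), and the right panel the root mean square difference of each pair of tumors (log2 units), with a bar at the mean. The 3 tumors of cohort 2 (orange) lie together, while tumor 1 stands alone on the first component and tumors 2 and 3 lie low on the second.

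Of genes lower in cohort 2, Nppb, Fem1b, Cast and Cd93 had the smallest p-values, and none of the 12 named by smallest p overlapped between cohorts. Nppb, the precursor of B-type natriuretic peptide, was at -0.20, -0.48 and 0.13 in tumors 1, 2 and 3 and -1.23, -1.27 and -1.75 in tumors 4, 5 and 6, a difference of -1.24 (SE 0.20, unadjusted p = 0.000121). Cd93, a surface glycoprotein of endothelial and myeloid cells, was at -0.09, -0.55 and 0.13 in cohort 1 and -1.04, -1.22 and -1.13 in cohort 2 and differed by -0.96 (SE 0.18, unadjusted p = 0.000379). All 3 tumors of cohort 2 were below all 3 of cohort 1 for both genes, and the cohort 2 tumors lay within 0.18 of each other for Cd93. Gadd45g and Gadd45b, growth arrest and DNA damage sensors that activate p38 and JNK kinase pathways, differed by -1.03 (SE 0.20, unadjusted p = 0.000458) and -0.89 (SE 0.17, unadjusted p = 0.000469). Nfil3, a transcription factor of the circadian clock and of immune cells, was tight in cohort 1, at 0.93, 1.03 and 1.00, and lower in cohort 2, at -0.12, 0.39 and 0.28. Noct, a clock-regulated phosphatase of NADP(H), differed by -1.04 (SE 0.21, unadjusted p = 0.000700), and Bhlhe40, a repressor of the clock also induced by hypoxia, by -1.06 (SE 0.23, unadjusted p = 0.00122). For both of these the cohorts did not overlap. Cast, encoding the calpain inhibitor calpastatin, was at -0.07, -0.37 and -0.40 and -1.02, -0.98 and -1.23 in the 2 cohorts and differed by -0.79 (SE 0.14, unadjusted p = 0.000304). Fem1b, a substrate receptor of a cullin ubiquitin ligase, differed by -0.70 (SE 0.13, unadjusted p = 0.000298), Dnajc5, a chaperone of secretory vesicles, by -0.81 (SE 0.15, unadjusted p = 0.000455) and Slc20a1, a phosphate transporter, by -0.75 (SE 0.14, unadjusted p = 0.000507). Klf5, a zinc-finger factor of proliferating epithelium, had the most negative difference among named genes without overlap, -1.43 (SE 0.36, unadjusted p = 0.00312), and a wide range in cohort 1, at 1.56, 0.34 and -0.11, with tumor 1 highest. Hmga1, an architectural chromatin protein, and Rgs17, a negative regulator of G protein signals, differed by -1.17 (SE 0.24, unadjusted p = 0.000791) and -1.08 (SE 0.28, unadjusted p = 0.00360).

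**Figure D2:**
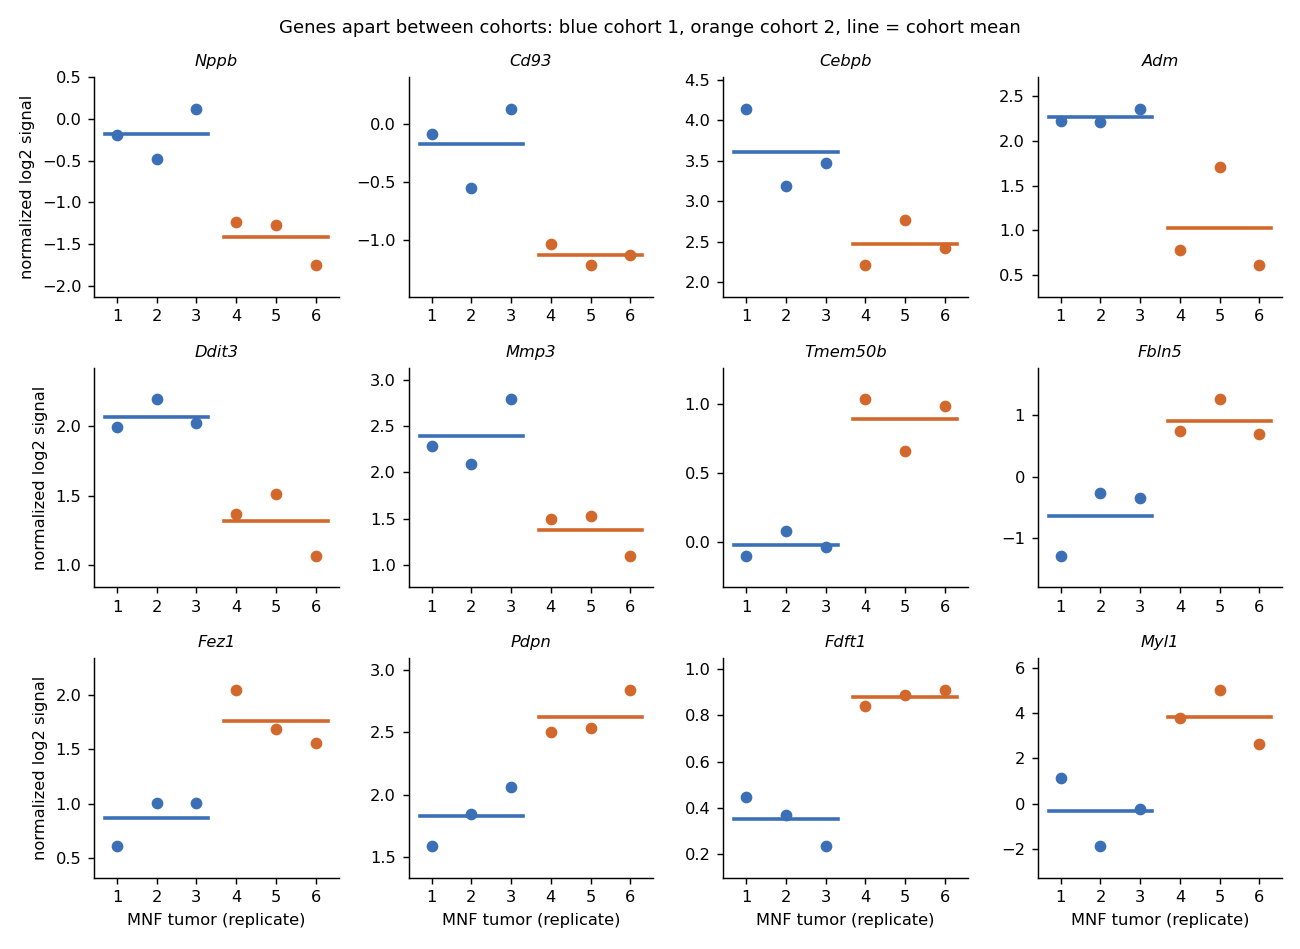
Normalized log2 signal (vertical axis, log2 units from the array mean) of 12 genes in each MNF tumor (horizontal axis, replicates 1 to 6), with a line at the mean of each cohort. Nppb, Cd93, Cebpb, Adm, Ddit3 and Mmp3 are lower in all 3 tumors of cohort 2 than in any of cohort 1, and Tmem50b, Fbln5, Fez1, Pdpn, Fdft1 and Myl1 are higher.

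Immediate early genes were the list with the lowest median. Of 22 tested members (28 on the array), 14 were lower in cohort 2 at an unadjusted p under 0.05 and 0 higher, beside 6.98% lower over all genes, and 13 were lower without overlap, beside 11.2% over all genes. The list's median difference was -0.55, against -0.01 over all genes. Atf3, a stress-induced repressor of the ATF/CREB family, was at -1.49, -1.19 and -1.44 in cohort 1 and -2.20, -1.89 and -2.14 in cohort 2 (-0.70 (SE 0.14, unadjusted p = 0.000785)). Ier5 was at -0.43, -0.05 and -0.23 and -1.19, -0.98 and -0.66 (-0.71 (SE 0.17, unadjusted p = 0.00214)), and Ier2, an early response gene of serum and growth factors, at 0.17, 0.71 and 0.59 and -0.26, -0.02 and -0.05 (-0.60 (SE 0.16, unadjusted p = 0.00509)). Klf4, a zinc-finger factor of differentiation and pluripotency, differed by -0.69 (SE 0.19, unadjusted p = 0.00557), from 2.25, 1.91 and 1.50 in cohort 1 to 1.21, 1.03 and 1.35 in cohort 2. In all 4 of these genes every tumor of cohort 1 lay above every tumor of cohort 2. The other 10 lower members, named after their values were seen, were Dusp5, Junb, Fosl1, Myc, Ccn1, Klf6, Egr1, Zfp36, Ier3 and Dusp1, with differences from -0.48 for Zfp36 to -0.92 for Ccn1. Not all members followed: Fos differed by -0.28 (SE 0.29, unadjusted p = 0.359), Jun by -0.04 (SE 0.19, unadjusted p = 0.816) and Dusp6, a phosphatase of ERK, by 0.21 (SE 0.17, unadjusted p = 0.251), and Egr3, Egr4 and Nr4a1 were detected on none of the 6 arrays. Without tumor 1, the dimmest array, 15 members were lower, and over the 6 ways of leaving out 1 tumor the count ran from 11 to 16.

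Since these genes share control by serum response factor, which binds the CArG box, and by CREB, which binds the cAMP response element (TGACGTCA), the 250 bases before their start sites (RefSeq, GRCr8) were searched on both strands. A promoter was matched for 15 of the 22 tested members. The CArG box was in 5 of them (Dusp5, Klf6, Egr1, Zfp36 and Egr2), in 1.5% of 27457 rat promoters and in 1.13% of 4763 tested genes with a promoter. The cAMP response element was in 3 (Ier2, Dusp1 and Jund), in 1.7% of all promoters and in 3.25% of tested genes. Both motifs thus occurred among lower members and in members that missed the threshold (Egr2 and Jund). Of the 22 tested members 21 lay below 0, Egr2 and Jund among them. A match is no evidence of binding. The promoters of Egr1 (chr18:26736828-26737077, plus strand, 2 CArG boxes) and Ier2 (chr19:40399123-40399372, plus strand, 1 cAMP response element) are printed 5' to 3' with the matches in capitals, to show how the motifs sit in genes of this group, Egr1 having been chosen for its motifs after its values were seen.
Egr1: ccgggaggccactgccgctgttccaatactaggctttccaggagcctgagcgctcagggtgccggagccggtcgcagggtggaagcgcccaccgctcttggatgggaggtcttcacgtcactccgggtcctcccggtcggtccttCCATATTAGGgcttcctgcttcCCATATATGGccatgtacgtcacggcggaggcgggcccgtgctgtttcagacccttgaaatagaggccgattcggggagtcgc
Ier2: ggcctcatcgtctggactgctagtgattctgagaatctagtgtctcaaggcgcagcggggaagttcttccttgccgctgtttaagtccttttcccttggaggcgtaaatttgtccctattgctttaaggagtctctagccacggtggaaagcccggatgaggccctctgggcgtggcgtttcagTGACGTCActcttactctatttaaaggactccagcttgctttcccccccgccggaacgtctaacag

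Egr1, a zinc-finger factor, was at 2.15, 3.14 and 2.44 in tumors 1, 2 and 3 and 1.20, 2.03 and 1.81 in tumors 4, 5 and 6 (-0.90 (SE 0.28, unadjusted p = 0.00965)), the groups lying close, with tumor 5 at 2.03 below tumor 1 at 2.15.

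Hypoxia and glycolysis genes were lower in 12 of 25 tested members at an unadjusted p under 0.05 and higher in 1, beside 6.98% lower and 7.6% higher over all genes, with 9 lower and 1 higher without overlap, beside 11.2% and 10.6% over all genes, and their median difference was -0.48. Adm, the vasodilator adrenomedullin, was nearly level in cohort 1, at 2.22, 2.21 and 2.36, and was 0.77, 1.70 and 0.61 in cohort 2, where tumor 5 was the highest (-1.24 (SE 0.25, unadjusted p = 0.000776)). Bnip3, a mitophagy receptor, differed by -0.65 (SE 0.17, unadjusted p = 0.00420), Pdk1, the kinase that closes pyruvate dehydrogenase, by -0.79 (SE 0.22, unadjusted p = 0.00510) and Pgk1, a glycolytic kinase, by -0.68 (SE 0.19, unadjusted p = 0.00517). Vegfa, the main angiogenic growth factor, was at 0.39, 1.38 and 1.61 and -0.65, 0.52 and -0.27, and differed by -1.26 (SE 0.35, unadjusted p = 0.00572) with tumor 5 above tumor 1. Tumor 5 thus lay nearest to cohort 1 for both Adm and Vegfa, and 17 members were lower when it was left out, while 7 were lower without tumor 4 and 7 without tumor 6. The 1 member that passed upward was Pfkm, the muscle phosphofructokinase, named after its value was seen. It differed by 0.73 (SE 0.21, unadjusted p = 0.00629), in the direction of the muscle probes. Of the 25 members 4 lay above 0, the highest at 0.79 without passing the threshold. Hmox1, heme oxygenase, did not pass (-0.76 (SE 0.38, unadjusted p = 0.0800)), ranging from 1.77 to 2.92 in cohort 1 and from 0.94 to 2.43 in cohort 2. The core of the hypoxia response element (ACGTG) was in 9 of 22 matched promoters (40.91%), beside 24.19% of tested genes and 16.95% of all promoters. Among the 11 lower members with a promoter it was in 4 (36.36%), Bnip3, Ankrd37, Higd1a and Ddit4, so it was no more frequent in the lower members. A match is no evidence of binding.

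Genes of the amino acid response were lower in 10 of 24 tested members and higher in 0, beside 6.98% lower over all genes, with 10 lower and 1 higher without overlap, beside 11.2% and 10.6%, and a median difference of -0.22. Ddit3, encoding CHOP, a factor of stress-induced death, was at 1.99, 2.20 and 2.02 in cohort 1 and 1.37, 1.52 and 1.07 in cohort 2 (-0.75 (SE 0.15, unadjusted p = 0.000613)). Sars1, the seryl-tRNA synthetase, was at 0.48, 0.45 and 0.38 and -0.07, -0.28 and -0.13 (-0.60 (SE 0.12, unadjusted p = 0.000774)), with ranges of 0.10 and 0.21 within the cohorts. Cebpb, a leucine-zipper factor of inflammation and differentiation, differed by -1.14 (SE 0.24, unadjusted p = 0.00106), from 4.15, 3.19 and 3.48 to 2.21, 2.77 and 2.42. Ddit3, Sars1 and Cebpb did not overlap between cohorts, and tumor 1 was the highest for Cebpb. Atf4 itself, named after its value was seen, differed by -0.56 (SE 0.13, unadjusted p = 0.00139), and the remaining lower members were Atf3, Vegfa, Shmt2, Ppp1r15a, Trib3 and Chac1. Asparagine synthetase and most other synthetase and transporter genes did not pass: Asns differed by -0.19 (SE 0.12, unadjusted p = 0.139), Nars1 by 0.05 (SE 0.13, unadjusted p = 0.697) and Slc7a5 by 0.04 (SE 0.19, unadjusted p = 0.849), while Phgdh, the first enzyme of serine synthesis, was at 0.30 (SE 0.13, unadjusted p = 0.0528). Without tumors 3 or 6, 6 members were lower. The C/EBP-ATF response element (TGATGNAA) was found in 6 of 23 matched promoters (Trib3, Chac1, Nupr1, Slc7a1, Nars1 and Aars1), in 3.27% of all promoters and 1.76% of tested genes. Only Trib3 and Chac1 of these 6 were lower at the threshold. The promoter of Trib3, a pseudokinase that restrains ATF4, is printed as an example (chr3:161275534-161275783, minus strand, RefSeq GRCr8) with the match, which reads on the opposite strand, in capitals.
Trib3: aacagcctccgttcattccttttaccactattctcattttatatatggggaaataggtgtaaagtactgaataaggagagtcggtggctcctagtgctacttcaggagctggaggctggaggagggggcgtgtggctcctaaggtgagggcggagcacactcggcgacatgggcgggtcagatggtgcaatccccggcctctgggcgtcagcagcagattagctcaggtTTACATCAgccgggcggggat

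Cytosolic ribosomal protein genes had small differences, mostly of 1 sign: 54 of 57 tested members were below 0, 17 of them at an unadjusted p under 0.05 and 0 higher, beside 6.98% lower over all genes, with 23 lower without overlap, beside 11.2%, and a median of -0.28. Rpl24 was at 3.59, 3.46 and 3.63 in cohort 1 and 3.05, 3.19 and 3.17 in cohort 2 (-0.42 (SE 0.12, unadjusted p = 0.00695)). Rpl35a was at 5.12, 4.24 and 4.84 and 4.04, 4.06 and 4.11 (-0.66 (SE 0.21, unadjusted p = 0.0101)), tumors 4, 5 and 6 being nearly equal and tumor 1 the highest. Rpl36 and Rps15a differed by -0.58 (SE 0.18, unadjusted p = 0.0101) and -0.49 (SE 0.15, unadjusted p = 0.0101). The count depended on which tumors were kept: 8 members were lower without tumor 1 (median -0.17), 30 without tumor 2, 8 without tumor 4 and 6 without tumor 6. It also depended on the scaling, with 6 members lower after quantile normalization and 5 after neqc. Ribosomal protein genes have many near-identical pseudogene copies, so their probes may read more than 1 gene. Heat shock genes were lower in 3 of 12 tested members and higher in 0, beside 6.98% lower over all genes, with a median of -0.23. Without overlap 2 were lower, beside 11.2% over all genes. Hspe1, the mitochondrial chaperonin partner, differed by -0.43 (SE 0.13, unadjusted p = 0.00811), Hsp90aa1 by -0.53 (SE 0.20, unadjusted p = 0.0253) and Hspb8 by -0.37 (SE 0.16, unadjusted p = 0.0448). The 1 member above 0 differed by 0.76, the largest size in the list, and missed the threshold. MHC class I and antigen processing genes had a median of -0.32, with 2 of 16 lower and 0 higher, beside 6.98% lower over all genes. This median turned to 0.05 without tumor 1. B2m, the light chain of class I molecules, was at 6.31, 5.45 and 5.31 in cohort 1 and 5.09, 5.15 and 5.06 in cohort 2 (-0.59 (SE 0.23, unadjusted p = 0.0313)). RT1-T24-4, a rat class I gene, was at 1.80, 0.10 and 0.37 and 0.06, 0.09 and -0.05 (-0.73 (SE 0.36, unadjusted p = 0.0761)), a difference carried by tumor 1.

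Growth factor and receptor genes passed the threshold in both directions, matrix metalloproteinase and inhibitor genes downward only. Of 13 tested matrix metalloproteinase and inhibitor genes, 3 were lower at an unadjusted p under 0.05 and 0 higher, beside 6.98% lower over all genes. Without overlap 4 were lower and 0 higher, beside 11.2% lower over all genes, and the median was -0.08. Mmp3, stromelysin-1, was at 2.29, 2.09 and 2.79 in cohort 1 and 1.50, 1.53 and 1.10 in cohort 2 (-1.02 (SE 0.20, unadjusted p = 0.000598)). Mmp10, stromelysin-2, was at -0.42, -0.84 and 0.61 and -1.40, -1.47 and -1.31 (-1.18 (SE 0.31, unadjusted p = 0.00371)), the 3 tumors of cohort 2 lying within 0.17 of each other and tumor 3 highest. Timp3, an inhibitor bound to the matrix, differed by -0.57 (SE 0.21, unadjusted p = 0.0246), whereas Timp2 was at 0.46 (SE 0.24, unadjusted p = 0.0892). Among 25 growth factor and receptor tyrosine kinase genes, 5 were lower (Vegfa, Gdf15, Fgf2, Epha2 and Inhba) and 3 higher (Ddr1, Igf2 and Fgfr3), beside 6.98% and 7.6% over all genes. Those beyond the naming rule were named after their values were seen. Gdf15, a stress-induced cytokine, was at -1.29, -0.91 and -0.84 and -1.93, -1.55 and -1.90 (-0.78 (SE 0.17, unadjusted p = 0.00105)). Ddr1, a collagen receptor kinase, was at -1.42, -0.92 and -1.52 and -0.65, -0.51 and -0.68 (0.67 (SE 0.17, unadjusted p = 0.00313)). The cohorts did not overlap for either. Of 7 tested p53 targets, 2 were lower and 2 higher, beside 6.98% and 7.6% over all genes. Mdm2, the ubiquitin ligase of p53, differed by -0.75 (SE 0.20, unadjusted p = 0.00366) and Gadd45a by -0.56 (SE 0.19, unadjusted p = 0.0150), but Sesn1, a sestrin, by 0.69 (SE 0.21, unadjusted p = 0.0100) and Ei24 by 0.39 (SE 0.13, unadjusted p = 0.0152).

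Of genes higher in cohort 2, Tmem50b, Tst, Fbln5 and Myl1 had the smallest p-values, and none of the 12 named by smallest p overlapped. Tmem50b, a small membrane protein, had the smallest p of all named genes: it was at -0.10, 0.08 and -0.04 in tumors 1, 2 and 3 and 1.04, 0.66 and 0.99 in tumors 4, 5 and 6 (0.92 (SE 0.14, unadjusted p = 9.94e-05), adjusted p = 0.164). Tst, the mitochondrial thiosulfate sulfurtransferase, was at -0.15, -0.13 and -0.08 and 0.90, 0.67 and 0.51 (0.82 (SE 0.14, unadjusted p = 0.000175)). Both genes were tight in cohort 1 and higher in every tumor of cohort 2. Fbln5, a protein of elastic fibres, was at -1.29, -0.26 and -0.35 and 0.74, 1.26 and 0.70 (1.53 (SE 0.27, unadjusted p = 0.000277)), with tumor 1 the lowest, and Dpt, dermatopontin of the collagen matrix, at -0.31, 1.19 and 0.45 and 1.48, 1.28 and 2.11 (1.18 (SE 0.35, unadjusted p = 0.00763)). Mxra8, a matrix-remodelling cell surface protein, differed by 0.85 (SE 0.16, unadjusted p = 0.000482). In the fibroblast and matrix list 2 of 12 tested members were higher and 0 lower, beside 7.6% higher over all genes, with a median of 0.28. Col1a2 differed by 0.60 (SE 0.20, unadjusted p = 0.0134) and Col1a1 by 0.68 (SE 0.24, unadjusted p = 0.0196), Col1a1 with tumor 2 above tumor 4. Without tumor 2, 8 of the 12 were higher. The remaining members included Fn1 and Col3a1 at -0.21 and -0.22, so the collagen genes did not share 1 sign.

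Thra, a thyroid hormone receptor, was nearly level within each cohort, at 0.41, 0.46 and 0.30 and 1.00, 1.02 and 1.08 (0.64 (SE 0.12, unadjusted p = 0.000371)). P2rx4, an ATP-gated ion channel, was at -0.39, -0.22 and -0.32 and 0.39, 0.24 and 0.37 (0.64 (SE 0.12, unadjusted p = 0.000466)). Fez1, an adaptor of kinesin transport in axons, was at 0.61, 1.01 and 1.00 and 2.05, 1.68 and 1.55 (0.89 (SE 0.17, unadjusted p = 0.000544)). None of these 3 overlapped between cohorts. Pdpn, the mucin-type membrane glycoprotein podoplanin, was at 1.59, 1.85 and 2.06 and 2.50, 2.53 and 2.84 (0.80 (SE 0.16, unadjusted p = 0.000740)). Fxyd1, phospholemman, a regulator of the sodium pump, differed by 0.76 (SE 0.16, unadjusted p = 0.000860), Ldhb, the heart-type lactate dehydrogenase subunit, by 0.70 (SE 0.14, unadjusted p = 0.000666) and Hsd17b11, a lipid droplet dehydrogenase, by 0.94 (SE 0.19, unadjusted p = 0.000791). Gpr37l1, an orphan receptor of astrocytes, was at -0.83, 0.42 and -0.13 and 1.23, 1.25 and 0.90 (1.30 (SE 0.27, unadjusted p = 0.000946)), and Bcas1, a gene of early myelinating oligodendrocytes, at 0.17, 0.70 and 1.84 and 1.90, 2.17 and 2.03 (1.13 (SE 0.34, unadjusted p = 0.00924)). Tumor 1 was the lowest of the 6 for both, and Bcas1 missed the threshold when arrays were weighted by quality. The myelin genes Pmp22 and Cnp, the 2 of 9 on the array that were tested, differed by 0.90 (SE 0.30, unadjusted p = 0.0153) and 0.85 (SE 0.34, unadjusted p = 0.0349), beside 7.6% higher over all genes. In both, tumor 2 overlapped cohort 2. S100b was the 1 of 7 tested astrocyte genes that passed (0.44 (SE 0.17, unadjusted p = 0.0275)), beside 7.6% higher over all genes. Clu, clusterin, was at 0.74 (SE 0.36, unadjusted p = 0.0682).

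Cholesterol synthesis genes were higher in 6 of 19 tested members and lower in 0, beside 7.6% higher over all genes. Without overlap 7 were higher and 1 lower, beside 10.6% and 11.2% over all genes, and the median was 0.24. Fdft1, squalene synthase, was at 0.45, 0.37 and 0.23 in cohort 1 and 0.84, 0.89 and 0.91 in cohort 2 (0.53 (SE 0.12, unadjusted p = 0.00165)). Nsdhl, a sterol decarboxylating dehydrogenase, was at -0.53, -0.57 and -0.52 and 0.00, -0.11 and -0.03 (0.49 (SE 0.12, unadjusted p = 0.00204)). Dhcr7, the last enzyme of the Kandutsch-Russell branch, was at 0.44, 1.06 and 0.52 and 1.24, 1.35 and 1.62 (0.73 (SE 0.19, unadjusted p = 0.00338)), and Sqle, squalene epoxidase, differed by 0.51 (SE 0.15, unadjusted p = 0.00834). In all 4 every tumor of cohort 2 was above every tumor of cohort 1, and Sc5d and Idi1, named after their values were seen, were the other 2 that passed. The regulators Srebf2 and Insig1 were at 0.27 (SE 0.18, unadjusted p = 0.173) and 0.24 (SE 0.15, unadjusted p = 0.161), and Cyp51 at 0.12 (SE 0.16, unadjusted p = 0.485). Without tumor 1, 11 members were higher and 0 lower. Lysosome and autophagy genes were higher in 3 of 27 (11.11%) and lower in 0, beside 7.6% higher and 6.98% lower over all genes. Their median was 0.07. Psap, the precursor of the saposins, differed by 0.47 (SE 0.12, unadjusted p = 0.00383), Hexa, a hexosaminidase, by 0.51 (SE 0.18, unadjusted p = 0.0167) and Map1lc3a, an autophagosome protein, by 0.35 (SE 0.14, unadjusted p = 0.0329). Skeletal muscle genes had the largest differences on the array. Acta1, skeletal actin, was at 3.75, -1.39 and 2.04 in cohort 1 and 5.41, 5.82 and 4.75 in cohort 2 (3.86 (SE 1.02, unadjusted p = 0.00407)), tumor 2 lying over 5 log2 units below tumor 1 inside cohort 1. Tnnc2, fast troponin C, was at 1.78, -1.81 and 0.19 and 4.46, 5.55 and 2.65 (4.17 (SE 0.89, unadjusted p = 0.00102)), Myl1, a myosin light chain, differed by 4.12 (SE 0.74, unadjusted p = 0.000313) and Des, desmin, by 1.02 (SE 0.28, unadjusted p = 0.00562). These 4 of 5 tested muscle genes were higher, beside 7.6% over all genes. None of them overlapped, beside 10.6% higher without overlap over all genes. A further 18 muscle genes on the array failed the filter. Among those, Myl11, Tnni2, Tnnt3 and Ckm were each detected on 2 arrays of cohort 1 and all 3 of cohort 2. Tmod1, an actin-capping protein abundant in muscle and red cells, had the same order of tumors within cohort 2, at -0.02, 1.28 and -0.98, and differed by 1.44 (SE 0.45, unadjusted p = 0.00981). With the muscle and red blood cell genes left out, the cohort took 32.7% of the variance, and whether muscle RNA moved with the values of other genes was not tested.

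**Figure D3:**
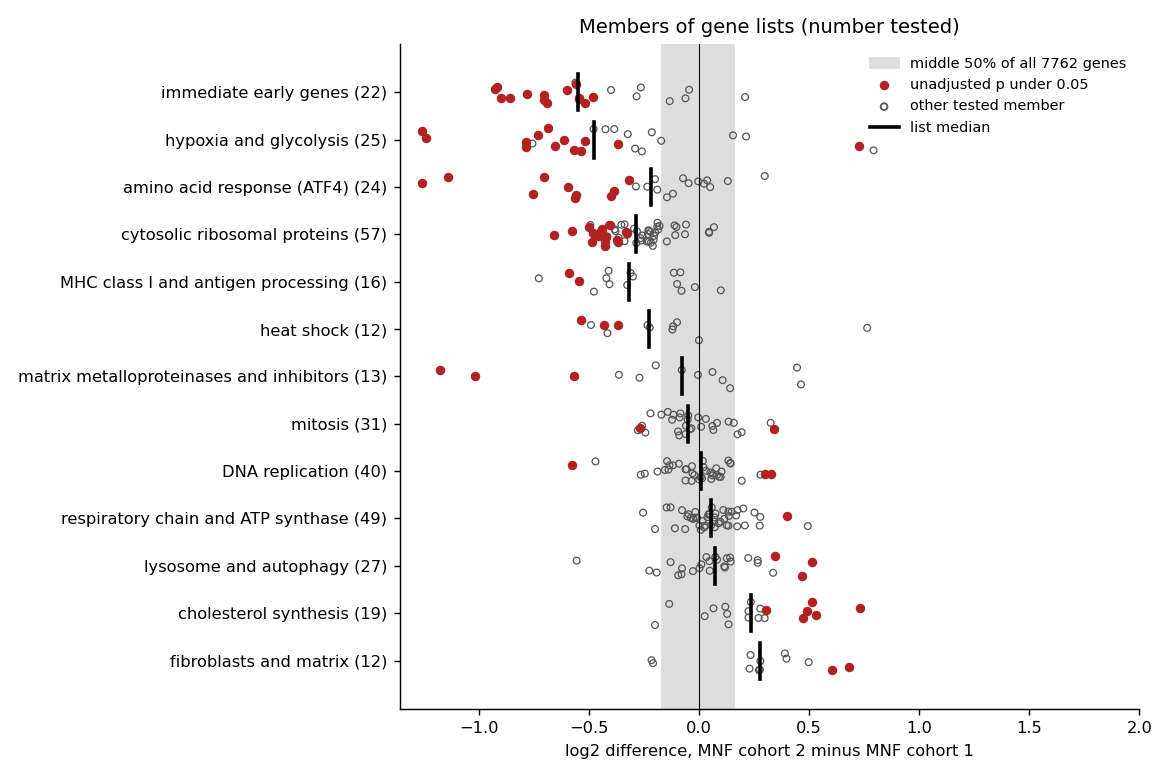
Difference between cohort 2 and cohort 1 of the MNF tumors (log2, horizontal axis) for each tested member of 13 gene lists, with the number tested in brackets, filled points at an unadjusted p under 0.05, a bar at the list median and a grey band over the middle 50% of all 7762 genes. The immediate early list has the lowest median, -0.55, and the fibroblast and cholesterol lists the highest, 0.28 and 0.24, while mitosis and DNA replication lie at the band's centre.

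Cell cycle genes showed little of this. Of 31 tested mitosis genes 1 was higher and 1 lower, with a median of -0.05, and of 40 DNA replication genes 2 were higher and 1 lower, with a median of 0.01. Kifc1, a minus-end kinesin, differed by 0.34 (SE 0.13, unadjusted p = 0.0270) and Plk4, the centriole kinase, by -0.27 (SE 0.12, unadjusted p = 0.0437), while Orc4, of the origin recognition complex, differed by -0.57 (SE 0.16, unadjusted p = 0.00653). Mki67, the proliferation antigen, was at -1.11, -1.09 and -1.21 and -1.37, -1.10 and -1.39 (-0.15 (SE 0.13, unadjusted p = 0.281)). Of 49 respiratory chain and ATP synthase genes, 1 was higher, Ndufs3 (0.40 (SE 0.12, unadjusted p = 0.0102)), and 0 lower, and of 28 proteasome genes 1 was lower, Psmd11 (-0.41 (SE 0.13, unadjusted p = 0.0122)). Among 16 caspase and apoptosis genes 1 was higher, Casp2 (0.42 (SE 0.16, unadjusted p = 0.0280)). Endoplasmic reticulum stress genes were lower in 1 of 18, the chaperone Hspa5 (-0.34 (SE 0.13, unadjusted p = 0.0261)). These shares were at or below those of all genes. Of 12 interferon response genes, 2 were lower, beside 6.98% over all genes: Usp18 (-0.48 (SE 0.16, unadjusted p = 0.0139)) and Cxcl10 (-0.46 (SE 0.17, unadjusted p = 0.0258)). Antioxidant genes had 1 of 27 higher, Keap1 (0.42 (SE 0.12, unadjusted p = 0.00613)), and 1 lower, Gclc (-0.43 (SE 0.13, unadjusted p = 0.00914)). Each is 3.7% of the list, below the 7.6% and 6.98% over all genes. Of adrenergic and cannabinoid receptor genes, Adrb1, Adrb3, Cnr1 and Cnr2 were detected on none of the 6 arrays. Of the cAMP pathway 11 genes were tested, 1 of them higher and 2 lower, beside 7.6% and 6.98% over all genes. Sik1, a kinase induced by CREB, was at -0.79, -0.53 and -0.46 in cohort 1 and -1.26, -1.02 and -1.14 in cohort 2 (-0.55 (SE 0.14, unadjusted p = 0.00299)), and Creb1 differed by -0.32 (SE 0.13, unadjusted p = 0.0331), while Prkar2b, a regulatory subunit of protein kinase A, differed by 0.38 (SE 0.15, unadjusted p = 0.0346). Of 13 tested genes that the study's text discusses, 0 passed in either direction and 0 were free of overlap, with a median of 0.00 and a range from -0.33 for Actb to 0.32 for Olig1. Cdkn3, a phosphatase of cyclin-dependent kinases, was at 1.46, 1.09 and 1.61 and 1.15, 1.42 and 1.45 (-0.05 (SE 0.17, unadjusted p = 0.790)). Bub1b, a spindle checkpoint kinase, differed by -0.04 (SE 0.18, unadjusted p = 0.818), Ccna2, cyclin A2, by -0.09 (SE 0.13, unadjusted p = 0.502), Ccnd1, cyclin D1, by 0.09 (SE 0.13, unadjusted p = 0.525) and Mmp14, a membrane-bound metalloproteinase, by 0.00 (SE 0.14, unadjusted p = 0.975). A miss of the threshold does not show that the cohorts were alike, the median SE of 0.148 being close to the median size of a difference. Of 15 housekeeping genes, 3 were lower (Pgk1, Tfrc and B2m) and 1 higher (Gusb, 0.54 (SE 0.16, unadjusted p = 0.00811)), beside 6.98% and 7.6% over all genes.

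The same contrast was made in the vehicle tumors, over the same genes. There 269 genes passed an unadjusted p under 0.05, 143 higher in cohort 2 (1.84%) and 126 lower (1.62%), and 0 passed the adjusted one (smallest adjusted p 0.994). Leaving out single vehicle tumors moved these counts: without vehicle tumor 4, 552 genes passed the unadjusted threshold and 4 the adjusted one (smallest adjusted p 0.00135). Without vehicle tumor 6, 964 passed the unadjusted one, close to the 1132 of the MNF tumors, and 0 the adjusted one (smallest adjusted p 0.193). Without vehicle tumors 1, 2 and 5 the unadjusted count was 137, 152 and 130. The cohort took 19.4% of the variance among vehicle tumors (exact permutation p = 0.5), beside 34.1% among MNF tumors. The MNF and vehicle differences correlated at r = 0.01 across the 7762 genes, which share arrays' normalization and are not independent, and had the same sign for 47.8% of them. In the test of the difference itself, MNF minus vehicle in 1 limma fit of all 12 arrays, 724 genes passed an unadjusted p under 0.05, 407 upward (5.24%) and 317 downward (4.08%), and 0 after adjustment (smallest 0.530). The count of 724 is to be read beside the 388.1 that the threshold gives, and without vehicle tumor 6 it was 1428, of which 47 passed after adjustment (smallest adjusted p 0.0203). It was 1083 without MNF tumor 2 and between 467 and 482 without MNF tumor 4 or vehicle tumors 3, 4 or 5. Fxyd1 had the smallest p of the named genes: its vehicle levels were -0.03, -0.36 and -0.26 in cohort 1 and -1.57, -1.21 and -0.54 in cohort 2, opposite in direction to the MNF tumors, and the 2 differences were 1.66 apart (SE 0.31, unadjusted p = 0.000163, adjusted p = 0.530). Tmem50b was at 0.63, 0.34 and 0.51 and -0.14, -0.65 and 0.59 in vehicle tumors, a gap between the differences of 1.49 (unadjusted p = 0.000748). Nppb went the other way, at -1.28, 0.25 and -0.67 in vehicle cohort 1 and 1.36, 1.48 and -0.66 in vehicle cohort 2, with a gap of -2.55 (unadjusted p = 0.00301). Thus Fxyd1, Tmem50b and Nppb had opposite signs under the 2 treatments. Dusp3, a dual-specificity phosphatase, Smarcal1, an annealing helicase, and Fdft1 were the others of the 5 leading genes upward, with gaps of 0.95, 0.67 and 0.64, and Ltbp1, which binds latent TGF-beta, Hspe1, Cd55, a complement inhibitor, Ptbp1, a splicing repressor, and Rpl24 led downward, with -1.02, -0.67, -0.72, -0.81 and -0.57.

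By list, immediate early genes had a vehicle median of -0.07, with 1 member higher and 2 lower, beside 1.84% and 1.62% over all genes. In the test of the difference 6 of 22 passed downward, beside 4.08% over all genes, among them Ier2 (-0.92, unadjusted p = 0.00220) and Ier5 (-0.97, unadjusted p = 0.00947). Cholesterol genes had a vehicle median of -0.10 and 5 of 19 passed upward, beside 5.24% over all genes. Ribosomal protein genes had a vehicle median of 0.03 and 11 of 57 passed downward, beside 4.08%. For the hypoxia list the vehicle median was -0.27, nearer to the MNF value of -0.48. Of its 25 tested members 2 passed upward and 0 downward, beside 5.24% and 4.08% over all genes. The amino acid response had a vehicle median of -0.30, below its MNF median of -0.22. Of its 24 tested members 1 was higher and 6 lower in vehicle tumors, beside 1.84% and 1.62% over all genes. In the test of the difference 2 passed upward and 3 downward, beside 5.24% and 4.08% over all genes. Atf4, Ddit3 and Trib3 differed by -0.57, -0.66 and -0.57 in the vehicle tumors. For those 3 genes the gap between treatments was 0.00, -0.10 and 0.01 (unadjusted p = 1.000, 0.751 and 0.988). Cebpb and Atf3 of the same list were at 0.19 and 0.18 in vehicle tumors and had gaps of -1.35 (unadjusted p = 0.00681) and -0.89 (unadjusted p = 0.0198). For muscle genes the medians were 3.86 in MNF and 2.32 in vehicle tumors. In the latter 1 of 5 was higher at an unadjusted p under 0.05 and 0 lower, beside 1.84% and 1.62% over all genes. Vehicle tumor 4 of cohort 2 had the lowest muscle sum of the 6. None of the 5 passed the test of the difference.

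**Figure D4:**
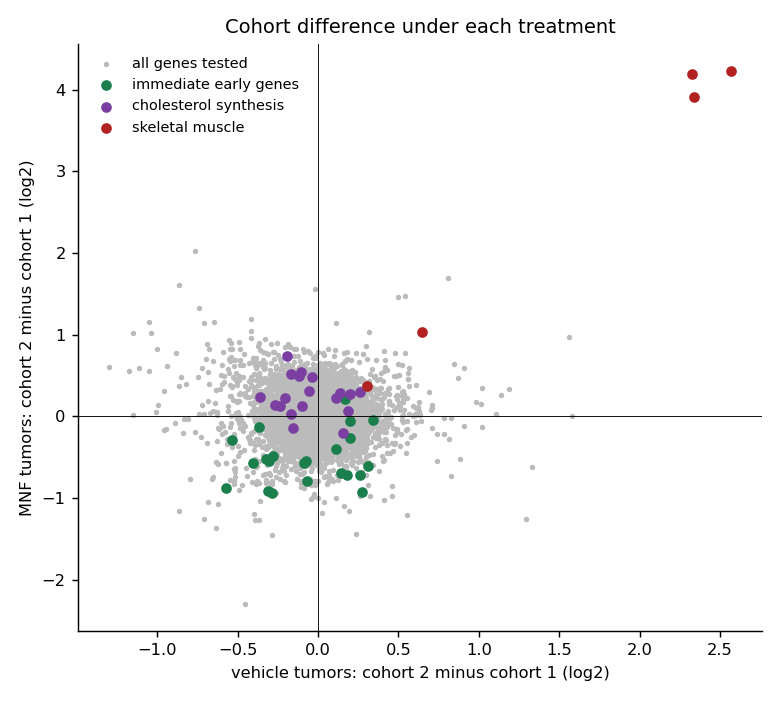
Each point is 1 of 7762 genes, by its difference between cohorts in vehicle tumors (horizontal axis, log2) and in MNF tumors (vertical axis, log2). The 5 skeletal muscle genes (red) lie above 0 on both axes, with 1 passing the threshold in vehicle tumors, immediate early genes (green) lie mostly below 0 on the vertical axis with a vehicle median of -0.07, and cholesterol genes (purple) lie mostly above 0 on the vertical axis with a vehicle median of -0.10.

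Tumors within a cohort also differed, more so in cohort 1. The pooled variance within cohort 2 was 0.470 of that within cohort 1 (exact permutation p = 0.1, the smallest possible), the root mean square SD per gene being 0.283 in cohort 1 and 0.194 in cohort 2. The SD was larger in cohort 1 for 5010 genes (64.5%), and 359 genes ranged over more than 1 log2 unit in cohort 1 against 108 in cohort 2. Among vehicle tumors the order was the reverse, at 0.190 in cohort 1 and 0.297 in cohort 2. The ratio for MNF tumors ran from 0.303 to 0.786 over the 6 ways of leaving out a tumor. The arrangement into cohorts was no longer the most extreme (exact permutation p = 0.2) with Z scores over all probes (ratio 0.414), median centring (0.502), the authors' processed values (0.414) or muscle and red blood cell genes left out (0.472). Tumor 1 lay furthest from the other tumors of its cohort, by a root mean square of 0.410, followed by tumor 2 at 0.372 and tumor 3 at 0.233. Its array was also the dimmest of the MNF arrays, with a mean raw signal of 500.43 and 8733 probes detected. The SD of its log2 signal before normalization was 1.39, against 1.52 to 1.70 in the other 5, and arrays were scaled to the average SD. The part of this in the distance of tumor 1 was not tested. In tumor 1, 117 genes lay more than 1 log2 unit above the mean of tumors 2 and 3 and 53 below it. Fxyd3, an epithelial regulator of the sodium pump, was at 1.79, -1.35 and -0.64 in tumors 1, 2 and 3, and Plbd1, a lysosomal phospholipase-like protein, at 0.56, -2.17 and -1.60. Ptgr1, prostaglandin reductase, was at 0.74, -2.01 and -1.52 and RT1-S2, a rat class I gene, at 1.32, -1.50 and -1.41. In each of these 4 genes tumor 1 stood over 2 log2 units above both others. Hspb1, a small heat shock protein, was at 3.33, -0.32 and 0.14 in cohort 1 and 0.35, 2.12 and 0.68 in cohort 2, equal in mean but led by tumors 1 and 5. RT1-DMa, the 1 class II gene tested, was at 0.38, -1.66 and -1.54 in cohort 1, and the whole class I list had its median at 2.42 in tumor 1 and between 0.585 and 1.09 in the other 5. Fmod, the collagen-binding fibromodulin, was the furthest below in tumor 1, at -1.27, 2.32 and 0.79 in cohort 1 and 2.69, 2.13 and 1.76 in cohort 2, and Mgp, matrix Gla protein, was at 2.03, 4.06 and 3.76 and 4.08, 4.19 and 4.00. The keratins Krt1 and Krt10, which failed the filter, were detected in 2 tumors of cohort 1 and none of cohort 2, and the summed signal of the 4 keratinocyte probes was 3812.7 in tumor 1, 1116.2 in tumor 3 and 449.9 to 521.6 in the other 4. Its part in the genes high in tumor 1 was not tested.

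Tumor 2 had 63 genes above and 65 below the other 2 of its cohort by over 1 log2 unit. The lowest were the muscle genes Acta1, Tnnc2 and Myl1, at -1.39, -1.81 and -1.87, and the highest Fmod, Prss23, a serine protease, and Atp1b2, a glial sodium pump subunit, at 2.32, 1.69 and 0.81. Tumor 3 had 9 above and 17 below, with Hbb, a beta globin, at 4.44, 2.95 and 5.79 in tumors 1, 2 and 3 and Cxcl1, a neutrophil-attracting chemokine, at 1.02, 1.53 and 2.86. Both were highest in tumor 3 within cohort 1. In cohort 2 tumor 4 had 5 genes above and 16 below, Hbb at 2.04, 4.20 and 3.16 in tumors 4, 5 and 6 and Hmox1 at 0.94, 2.43 and 1.79 both being lowest there. Tumor 5 had 23 above and 9 below, led by Chchd10, a mitochondrial intermembrane protein, at 0.19, 1.69 and -1.04, Tnnc2, and Macrod1, a mitochondrial ADP-ribose hydrolase, at -0.17, 1.59 and -0.66. The muscle sum was also highest in tumor 5. Tumor 6 had 19 above and 24 below, with Gja5, the arterial connexin 40, at -0.89, -1.40 and 0.77, Cxcl1 at 0.54, 1.43 and 2.87 and Ccl2, a monocyte-attracting chemokine, at -0.53, -0.62 and 1.06. Thbs4, a thrombospondin of tendon and vessel walls, was highest there too, at -0.33, -1.71 and 0.40, and Cthrc1, a secreted collagen-associated protein, lowest, at 0.02, -0.75 and -1.59. Each of these values is from 1 tumor, with no replicate of it.

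**Figure D5:**
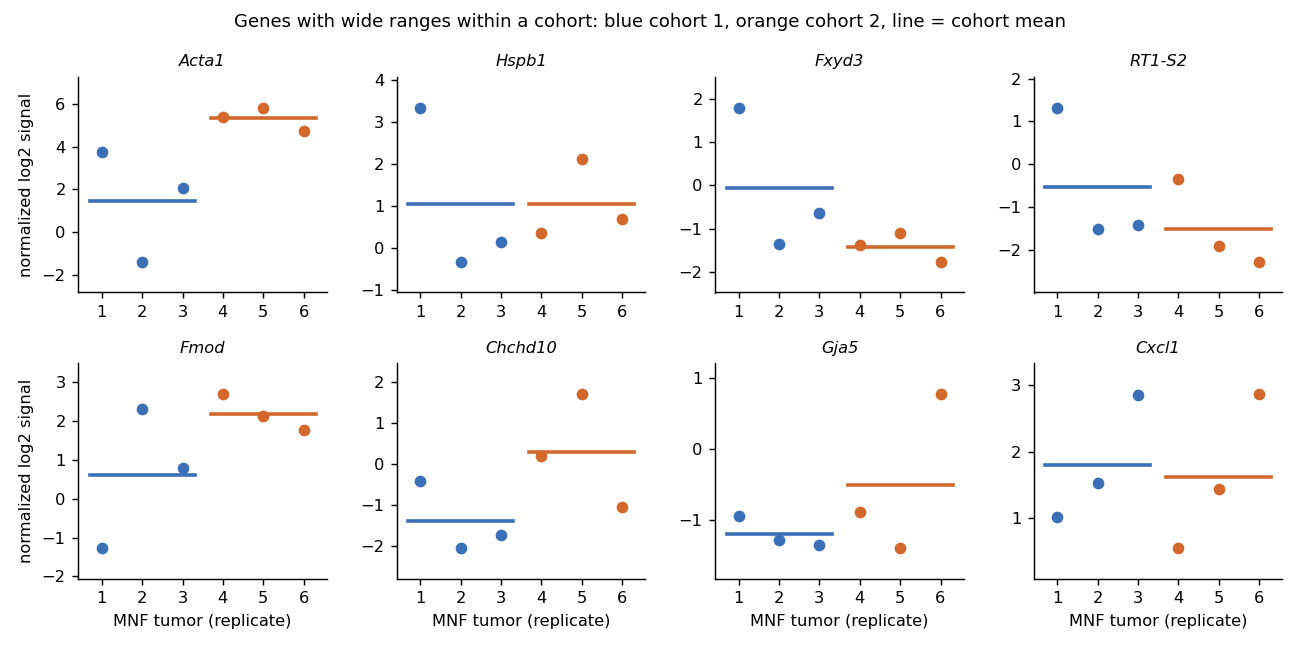
Normalized log2 signal (vertical axis, log2 units from the array mean) of 8 genes that range widely within a cohort, in MNF tumors 1 to 6 (horizontal axis), with a line at each cohort mean. Hspb1, Fxyd3 and RT1-S2 are highest in tumor 1 and Fmod is lowest there, Chchd10 is highest in tumor 5, and Gja5 is highest in tumor 6.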

How the data were processed

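Total RNA of 12 C6 xenografts was measured on Illumina RatRef-12 arrays, 1 array per tumor. The authors deposited an average signal intensity and a detection p-value per probe, not normalized, from GenomeStudio (1.6.0 in the submitters' processing notes), and a table for 11080 of 22517 probes that matched a Z score of log10 signal per array. Of the probes, 13259 carried 1 symbol and 9258 none. No array had depth to report, and the number of arrays limits the precision.

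Probes with a detection p under 0.02 on all 6 MNF arrays were kept. Log2 signals were Z-normalized per array and returned to log2 units through the average array SD, and the brightest probe stood for a gene. Cohorts were compared with limma 3.58.1 (lmFit, eBayes) in R 4.3.3, adjusted by Benjamini-Hochberg over all 7762 genes; the fit was tested on simulated data. Vehicle tumors and the difference between treatments used all 12 arrays normalized together over the same genes. Exact permutations of the 6 arrays are two-sided. Groups came from the sample titles.

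The tumors and the 39 gene lists were chosen with earlier results of these data known. Named were the 12 named genes of smallest p per direction, the 8 of largest difference without overlap, up to 4 of smallest p per list, the 10 of widest range per cohort and 3 furthest per tumor and side, the 13 tested genes of the study's text, and the 5 leading genes per direction of the difference between treatments. Other list members were named after their values were seen. Promoters came from the RefSeq table of GRCr8, matched by symbol for 4763 of 5602 named genes. Alternatives covered the normalization, background correction, probe filter, probe choice, array weights, fit and leaving out each tumor.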

Additional observations from a re-analysis of the deposited data

How the results depend on the processing

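Genes past an adjusted p of 0.05 numbered 0, but 1 after median centring, 1 with only genes above the median signal kept, 745 with array quality weights, 2347 with those weights by REML (added after seeing the data) and 0 to 49 on leaving out 1 tumor. Tumor 3 took the highest weight (3.01) and tumors 1 and 2 the lowest (0.388 and 0.484). The count at an unadjusted p (1132) became 2073 with no filter, 615 above the median signal, 2213 and 3329 with the 2 weightings and 707 to 1697 on leaving out 1 tumor. Genes without overlap (1692) became 3390, 867 and 2205 to 3305. In the vehicle tumors the 269 became 871, 123 and 130 to 964, and for the difference between treatments the 724 became 1602, 344 and 467 to 1428. After adjustment 4 genes passed without vehicle tumor 4 and 47 of the difference without vehicle tumor 6, against 0 of each with all tumors. Fewer genes were tested above the median signal, and fewer tumors on leaving 1 out. Otherwise the cause was not tested. On leaving out 1 tumor the share of variance ran from 33.12 to 50.67% and the variance ratio from 0.3031 to 0.7857. The share was 32.76% with neqc and 32.7% with muscle and red blood cell genes left out. Without tumor 4, 5 or 6 the arrangement into cohorts no longer gave the largest share (exact permutation p = 0.2 for each).

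Of the 1132 genes 52.1% were higher in cohort 2, against 34.1% after median centring (all-gene median -0.067) and 63.7% with Z scores over all probes (0.053).

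Lists were recounted under every alternative after seeing the data. Amino acid response members lower became 6 above the median signal and 6 to 10 on leaving out 1 tumor, hypoxia 7 to 17 and immediate early 11 to 16. Cholesterol members higher became 10 and 12 with weights and 4 to 11. Ribosomal members lower became 6 (quantile), 5 (neqc), 31 (REML weights) and 6 to 30. The glial progenitor median turned from 0.10 to -0.048 with no filter and ran from -0.077 (without tumor 3) to 0.113 on leaving out 1 tumor, and that of p53 targets from -0.21 to 0.075 above the median signal and ran from -0.332 to 0.12 (without tumor 1). The 37 genes of smallest p or largest difference without overlap were followed under 769 gene settings. Of these, 767 kept direction and threshold and 2 lost the threshold, both Bcas1 under array weights. The genes were picked by those values on these same arrays, so this count cannot show how robust they are.

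Replicate numbers were not taken to pair MNF with vehicle tumors. Correlations of same-numbered deviations ran from -0.18 (replicate 3) to 0.391 (replicate 1). They cannot show whether tumors of the same number shared a chip or a run. With the replicate block the difference between treatments gave 745 genes in place of 724.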
